A study of Schmidtea mediterranea with 24 samples.

Results

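The 6 genes described here, of 16575 in the deposited files, have the names of aminoacyl-tRNA synthetases that in human cells sit in the multisynthetase complex: EPRS (SMED30030404), IARS (SMED30027368), MARS (SMED30035512), QARS (SMED30007457), RARS (SMED30032186) and DARS (SMED30026479). They were chosen by their gene names in the study's table for the *fbl-1* knockdown (KD), whose held entries are sorted on the mRNA change in that knockdown. Names were held for 2517 genes, so further genes of this kind may be among the rest. The 6 genes were therefore selected on the comparison of *fbl-1* KD with *egfp* KD, and all their values in it, in mRNA and in footprints, are given as a description with no test. The comparison of *fbl-2* KD with *egfp* 2x KD comes from other animals with controls of their own, and there the 6 genes were tested.

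An aminoacyl-tRNA synthetase joins an amino acid to its tRNA, and the charged tRNA then brings it to the ribosome. Many of these enzymes work on their own, and a part of them is held in animal cells in a large assembly together with scaffold proteins, the multisynthetase complex. EPRS is a fused enzyme that charges the tRNAs of glutamate and proline, IARS charges the tRNA of isoleucine, MARS that of methionine, QARS that of glutamine, RARS that of arginine and DARS that of aspartate. Transcription of many cytosolic synthetase genes is known from mammals to rise in the amino acid response, which the transcription factor ATF4 drives. The complex itself was not measured here, and LARS, KARS and the scaffold proteins of the human complex were not analysed here.

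The animals were asexual planarians, *Schmidtea mediterranea*, flatworms that rebuild lost parts from stem cells called neoblasts. *fbl-1* and *fbl-2* are its homologs of fibrillarin, the enzyme that 2′-O-methylates ribosomal RNA. The groups were *fbl-1* KD with *egfp* KD as its control and *fbl-2* KD with *egfp* 2x KD as its control, each with 3 biological replicates of 30 worms fed with double-stranded RNA and collected at 48 hours post amputation from head, trunk and tail. Animals of both *fbl* knockdowns were fed 5 times, with RNAi food of 4x strength for *fbl-1* and 2x strength for *fbl-2*. How the controls were fed is not stated in the sources used here, and their RNA was directed at *egfp*, a gene that planarians lack. From each replicate, messenger RNA (RNA-seq) and ribosome-protected footprints (Ribo-seq) were sequenced, which gave 12 libraries of each kind.

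Values are reads per gene scaled by 1 factor per library, and add up to 8762055 to 9549828 per mRNA library and 9116524 to 10763740 per footprint library. Spearman correlations between libraries over genes lay between 0.974 and 0.992 for mRNA and between 0.937 and 0.99 for footprints. The values of the targeted genes run against the labels. *fbl-1* averaged 1039 ± 319 in the mRNA libraries labelled *fbl-1* KD and 134.0 ± 7.81 in *egfp* KD (SD, n = 3 each), and *fbl-2* averaged 745.3 ± 252 in the mRNA libraries labelled *fbl-2* KD and 135.3 ± 8.5 in *egfp* 2x KD (SD, n = 3 each). Whether these values hold reads from the fed double-stranded RNA was not tested, and with that they do not settle how far either gene's own mRNA was lowered. Directions below are those of libraries with these labels. The whole worm fragments are bulk samples, in which fewer cells of a type and less RNA per cell cannot be told apart.

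The mRNA of all 6 synthetases was higher in libraries labelled *fbl-1* KD than in *egfp* KD. The values of the 6 genes together summed to 14374, 15358 and 14118 in the 3 *fbl-1* KD libraries and to 6030, 7008 and 6818 in the 3 *egfp* KD libraries, a ratio of means of 2.21. IARS, QARS and MARS formed the upper part of the range, and EPRS, RARS and DARS the lower part.

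IARS had 3740, 4008 and 3500 in *fbl-1* KD mRNA, against 1261, 1510 and 1370 in *egfp* KD mRNA. The groups did not overlap, and the log2 change was 1.44 (SE 0.114). QARS had 2896, 3240 and 2915 in *fbl-1* KD and 1014, 1300 and 1145 in *egfp* KD, a log2 change of 1.39 (SE 0.119). MARS had 2215, 2222 and 2078 in *fbl-1* KD and 776, 844 and 975 in *egfp* KD, a log2 change of 1.33 (SE 0.116). These 3 genes stood at places 19, 23 and 28 from the highest of 12965 genes tested, and EPRS, RARS and DARS at places 121, 123 and 363. The places rest on the same change that chose the genes.

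EPRS, the fused enzyme, had 2693, 2348 and 2484 in *fbl-1* KD mRNA and 1338, 1462 and 1276 in *egfp* KD mRNA, a log2 change of 0.88 (SE 0.111). RARS had 1696, 1719 and 1705 in *fbl-1* KD and 864, 1014 and 915 in *egfp* KD, a log2 change of 0.88 (SE 0.110). The 3 *fbl-1* KD values of RARS were the closest together among the 6 genes in that group, with a coefficient of variation of 0.679%. DARS had 1134, 1821 and 1436 in *fbl-1* KD and 777, 878 and 1137 in *egfp* KD, a log2 change of 0.64 (SE 0.166). DARS was the 1 gene of the 6 whose groups overlapped, since its lowest *fbl-1* KD library lay just under its highest *egfp* KD library. Without *fbl-1* KD replicate 2 its log2 change was 0.47, and without *fbl-1* KD replicate 1 it was 0.81.

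Set against the mean of the controls, single *fbl-1* KD libraries held 2.54 to 2.90 times the control mean of IARS mRNA, 2.51 to 2.81 times that of QARS and 2.40 to 2.57 times that of MARS. The same ratio was 1.73 to 1.98 for EPRS, 1.82 to 1.85 for RARS and 1.22 to 1.96 for DARS. The ranges overlap within the first 3 genes and within the last 3, so that the order inside each set of 3 is not beyond the spread between libraries, while no range of the first 3 meets a range of the last 3. IARS made up 25.6% of the summed value of the 6 genes in *fbl-1* KD mRNA, against 20.9% in *egfp* KD mRNA. DARS made up 9.97% in *fbl-1* KD, against 14% in *egfp* KD.

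**Figure D1:**
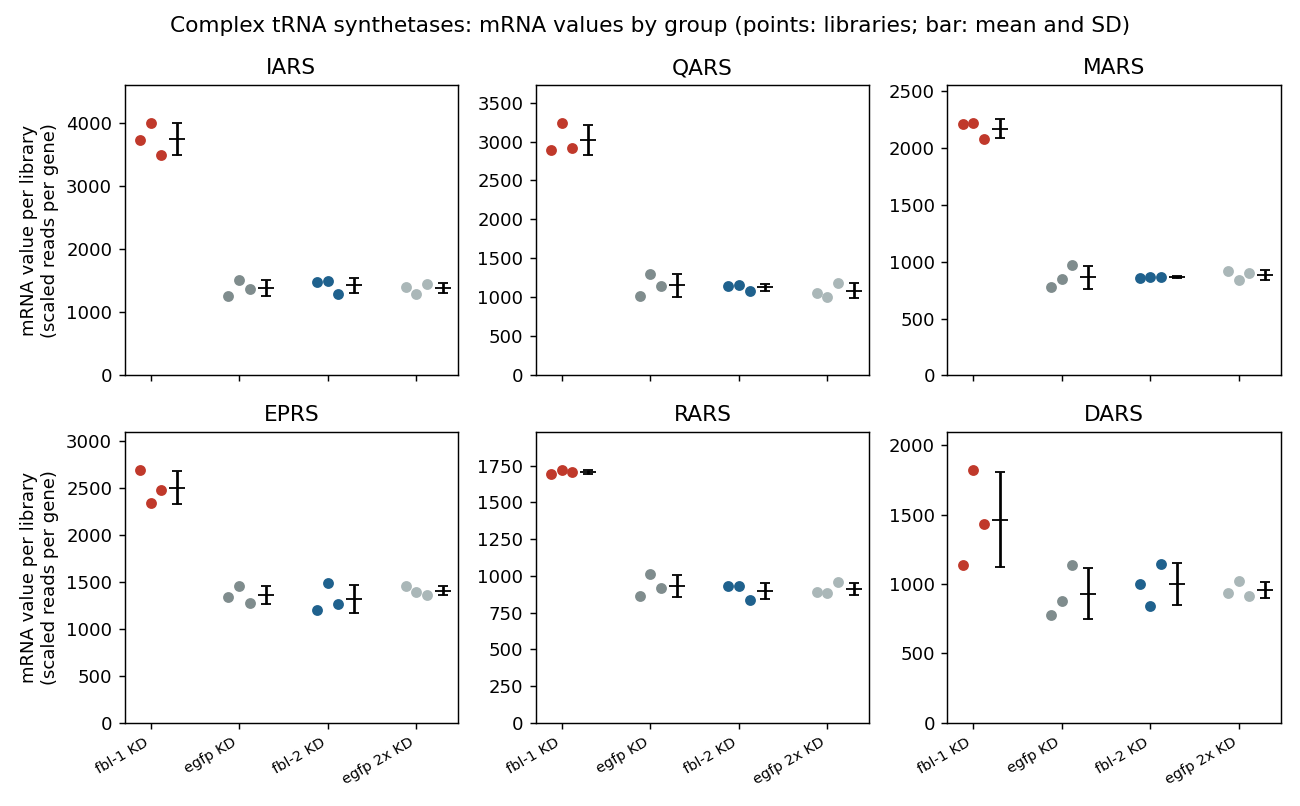
mRNA values (vertical axis, scaled reads per gene, from 0) of the 6 synthetases in the 4 groups (horizontal axis); points are libraries, and the bar beside them is the mean with its SD (n = 3). The *fbl-1* KD libraries of IARS lie between 3500 and 4008, above all other groups, while the *fbl-2* KD libraries lie among their controls.

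For 5 of the 6 genes all *fbl-1* KD libraries lay above all *egfp* KD libraries in mRNA, beside 11% of all genes. Since this comparison chose the genes, nothing is read from that count. The median log2 change was 1.11 over the 6 genes and -0.0127 over all genes tested.

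Footprints of the 6 synthetases were also higher in libraries labelled *fbl-1* KD. Their summed footprint values were 16375, 18125 and 18046 in *fbl-1* KD and 8800, 8551 and 7989 in *egfp* KD, a ratio of means of 2.07. IARS had 4859, 5548 and 5727 in *fbl-1* KD footprints and 2303, 2247 and 1859 in *egfp* KD footprints, a log2 change of 1.33 (SE 0.140). QARS had 3590, 3262 and 3031 in *fbl-1* KD and 1344, 1209 and 1504 in *egfp* KD, a log2 change of 1.29 (SE 0.140). Both enzymes thus stood at the upper end of the 6 in footprints, as they did in mRNA.

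RARS had 1845, 1923 and 1865 in *fbl-1* KD footprints and 1006, 904 and 830 in *egfp* KD footprints, a log2 change of 1.04 (SE 0.135). MARS had 2020, 2152 and 2082 in *fbl-1* KD and 983, 955 and 1184 in *egfp* KD, a log2 change of 1.01 (SE 0.138). RARS and MARS, whose single-library ratios to the control mean did not meet in mRNA, were side by side in footprints. There these ratios overlapped, at 2.02 to 2.11 for RARS and 1.94 to 2.07 for MARS. DARS had 1428, 1808 and 1789 in *fbl-1* KD and 1121, 1132 and 786 in *egfp* KD, a log2 change of 0.74 (SE 0.181). EPRS had 2633, 3432 and 3552 in *fbl-1* KD and 2043, 2104 and 1826 in *egfp* KD, a log2 change of 0.68 (SE 0.151). No gene of the 6 had overlapping groups in footprints.

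**Figure D2:**
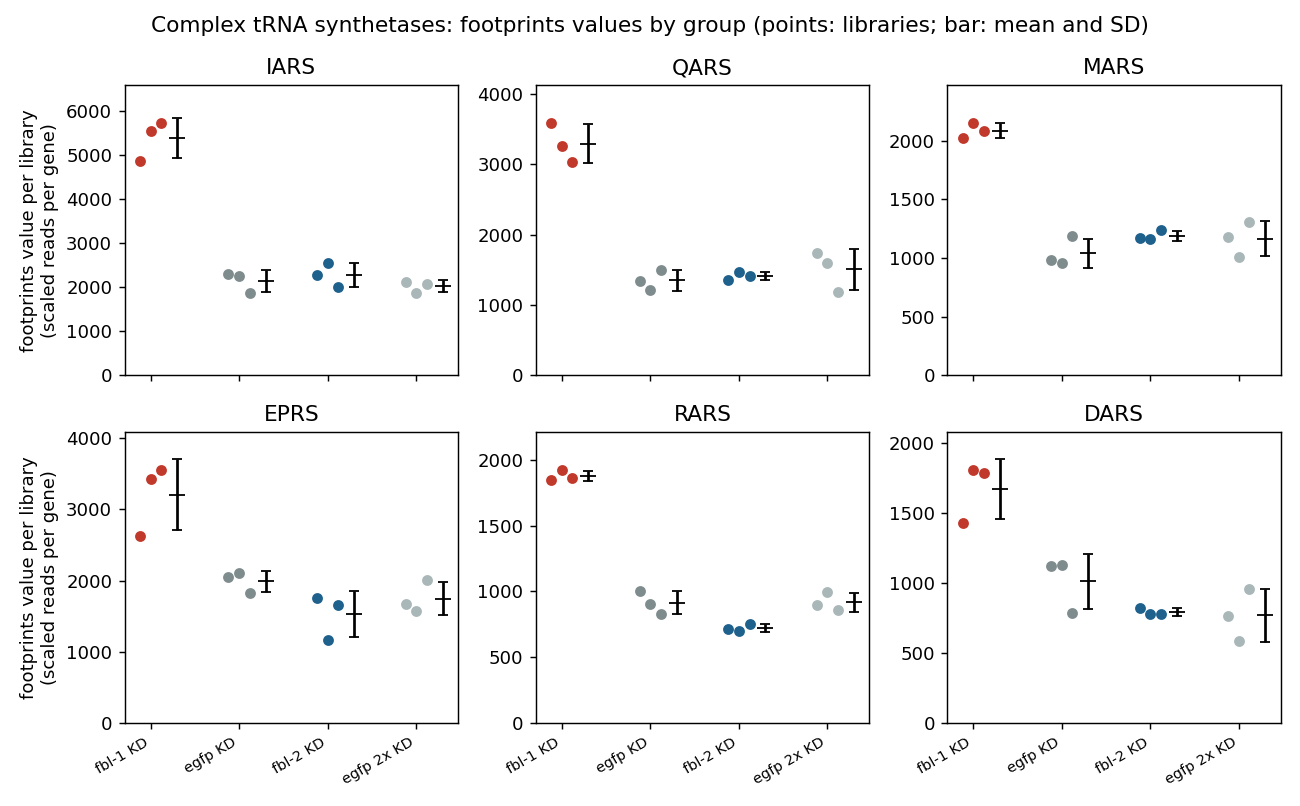
Footprint values (vertical axis, scaled reads per gene, from 0) of the 6 synthetases in the 4 groups (horizontal axis); points are libraries, and the bar beside them is the mean with its SD (n = 3). All 3 *fbl-1* KD libraries lie above all 3 *egfp* KD libraries for each gene, and RARS in *fbl-2* KD, at 698 to 752, lies below its controls.

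In footprints all *fbl-1* KD libraries lay above all *egfp* KD libraries for 6 of 6 genes, beside 11.3% of all genes, and nothing is read from this count either. With each of the 6 libraries left out in turn, the log2 change of IARS stayed between 1.24 and 1.41 and that of EPRS between 0.60 and 0.81.

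In *fbl-2* KD the mRNA of the 6 synthetases lay among its controls. The summed values were 6619, 6787 and 6487 in *fbl-2* KD and 6652, 6440 and 6783 in *egfp* 2x KD. None of the 6 passed the test (limma, smallest adjusted p = 0.862, for EPRS), beside 0.363% of all genes, and 0 of the 6 had an unadjusted p under 0.05, beside 9.93% of all genes. The groups overlapped for each of the 6, beside 15% of all genes whose groups did not overlap.

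IARS had 1486, 1498 and 1294 in *fbl-2* KD mRNA and 1397, 1297 and 1451 in *egfp* 2x KD mRNA. Its log2 change was 0.04, with a 95% interval of -0.23 to 0.32. QARS had 1142, 1162 and 1081 in *fbl-2* KD and 1057, 1009 and 1191 in *egfp* 2x KD, a log2 change of 0.06 (-0.22 to 0.33). MARS had 855, 869 and 864 in *fbl-2* KD and 916, 836 and 904 in *egfp* 2x KD, a log2 change of -0.04 (-0.30 to 0.23). The 3 genes that were farthest up in *fbl-1* KD thus had intervals that end at 0.33 or below in *fbl-2* KD.

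EPRS had 1205, 1487 and 1265 in *fbl-2* KD mRNA and 1460, 1397 and 1367 in *egfp* 2x KD mRNA, a log2 change of -0.10 (-0.38 to 0.18). RARS had 929, 928 and 836 in *fbl-2* KD and 888, 881 and 959 in *egfp* 2x KD, a log2 change of -0.02 (-0.29 to 0.25). DARS had 1002, 843 and 1147 in *fbl-2* KD and 934, 1020 and 911 in *egfp* 2x KD, a log2 change of 0.05 (-0.26 to 0.36). DARS had the widest interval of the 6, as it had the largest SE in *fbl-1* KD.

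Footprints in *fbl-2* KD gave no passed test either (0 of 6, beside 3.12% of all genes, limma). The summed footprint values were 8112, 7832 and 7844 in *fbl-2* KD and 8370, 7617 and 8378 in *egfp* 2x KD. RARS had the lowest change of the 6. It had 714, 698 and 752 in *fbl-2* KD footprints and 896, 995 and 857 in *egfp* 2x KD footprints, and the groups did not overlap. Its log2 change was -0.34 (SE 0.147, 95% interval -0.65 to -0.04) and the adjusted p was 0.291 in limma. RARS was the 1 gene of the 6 with an unadjusted p under 0.05, beside 13.6% of all genes, so that this count is near the background. Groups that do not overlap were found for 1 of the 6 genes and for 18.2% of all genes.

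EPRS had 1760, 1167 and 1661 in *fbl-2* KD footprints and 1668, 1570 and 2001 in *egfp* 2x KD footprints, a log2 change of -0.21 (-0.50 to 0.09). Library fbl-2_2 was low for EPRS, and without it the log2 change was -0.02. IARS had 2286, 2554 and 2010 in *fbl-2* KD and 2126, 1865 and 2070 in *egfp* 2x KD, a log2 change of 0.17 (-0.06 to 0.41). The highest IARS value was in that same library. MARS had 1169, 1161 and 1239 in *fbl-2* KD and 1177, 1007 and 1308 in *egfp* 2x KD. QARS had 1360, 1471 and 1406 in *fbl-2* KD and 1739, 1598 and 1183 in *egfp* 2x KD. DARS had 823, 781 and 776 in *fbl-2* KD and 764, 582 and 959 in *egfp* 2x KD. For MARS, QARS and DARS the controls spread more widely than the knockdown libraries and enclosed them.

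**Figure D3:**
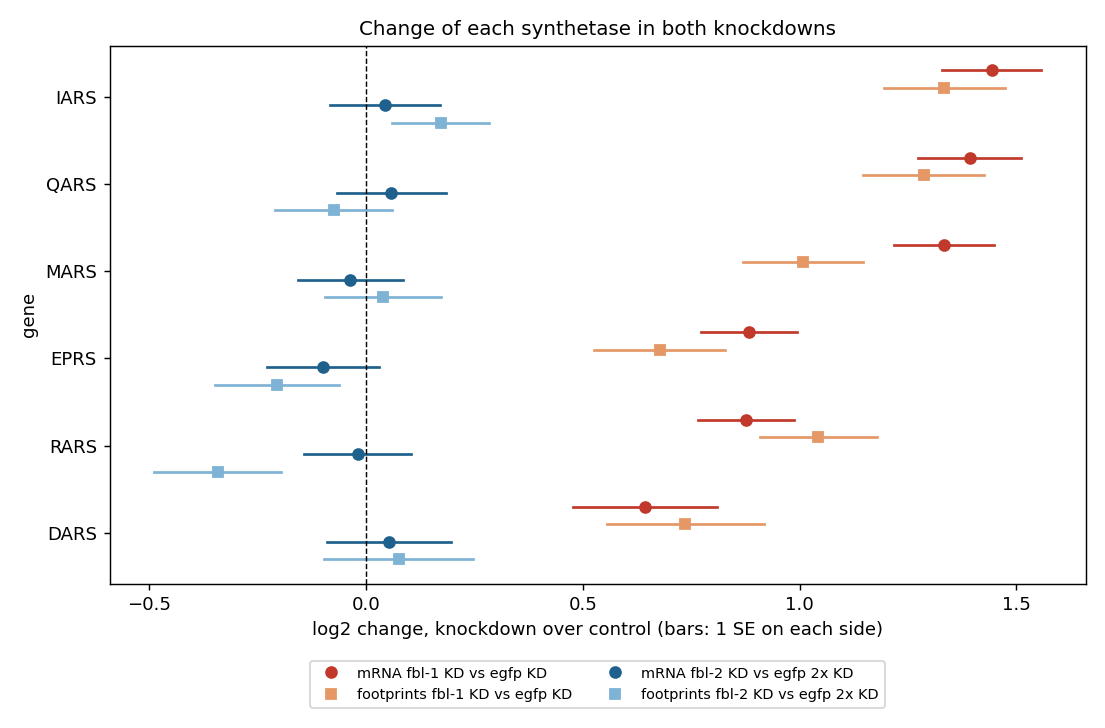
log2 change of knockdown over its control (horizontal axis) for each synthetase (vertical axis) in mRNA and footprints of both knockdowns; bars are 1 SE on each side (n = 3 against 3). The *fbl-1* KD points lie between 0.64 and 1.44 and the *fbl-2* KD points between -0.34 and 0.17.

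Side by side, the mRNA change in *fbl-1* KD exceeded that in *fbl-2* KD by 1.40 on the log2 scale for IARS (SE 0.158), 1.37 for MARS (SE 0.153), 1.33 for QARS (SE 0.164), 0.98 for EPRS (SE 0.158), 0.90 for RARS (SE 0.148) and 0.59 for DARS (SE 0.242). In footprints the difference was 1.39 for RARS (SE 0.187), 1.36 for QARS (SE 0.205), 1.16 for IARS (SE 0.181), 0.97 for MARS (SE 0.191), 0.88 for EPRS (SE 0.227) and 0.66 for DARS (SE 0.259). RARS had the largest footprint difference of the 6, with values above its controls in *fbl-1* KD and below its controls in *fbl-2* KD. Its lead over QARS was small against the SE of either gene, and its *fbl-2* KD change did not pass in limma. These differences are a description, since the change in *fbl-1* KD chose the genes, and each knockdown was set against its own controls.

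Translational efficiency (TE) is the footprint level of a gene relative to its mRNA, and its change is the footprint change less the mRNA change. In *fbl-1* KD the log2 change of TE was -0.33 for MARS (SE 0.172), -0.21 for EPRS (SE 0.183), -0.11 for IARS (SE 0.174), -0.11 for QARS (SE 0.179), 0.09 for DARS (SE 0.278) and 0.17 for RARS (SE 0.158). The mean footprint value over the mean mRNA value of MARS was 0.96 in *fbl-1* KD, against 1.20 in *egfp* KD, and that of RARS was 1.10 in *fbl-1* KD, against 0.981 in *egfp* KD. In limma 0% of the 12243 genes tested passed for TE, and 608 had an unadjusted p under 0.05.

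In *fbl-2* KD no gene of the 6 passed for TE (limma, smallest adjusted p = 0.885, for RARS), beside 0% of 12364 genes tested, of which 712 had an unadjusted p under 0.05. RARS had the lowest value, a log2 change of -0.32 (95% interval -0.69 to 0.04), and IARS the highest, 0.13 (-0.23 to 0.49). The mean footprint value over the mean mRNA value of RARS was 0.804 in *fbl-2* KD and 1.01 in *egfp* 2x KD.

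**Figure D4:**
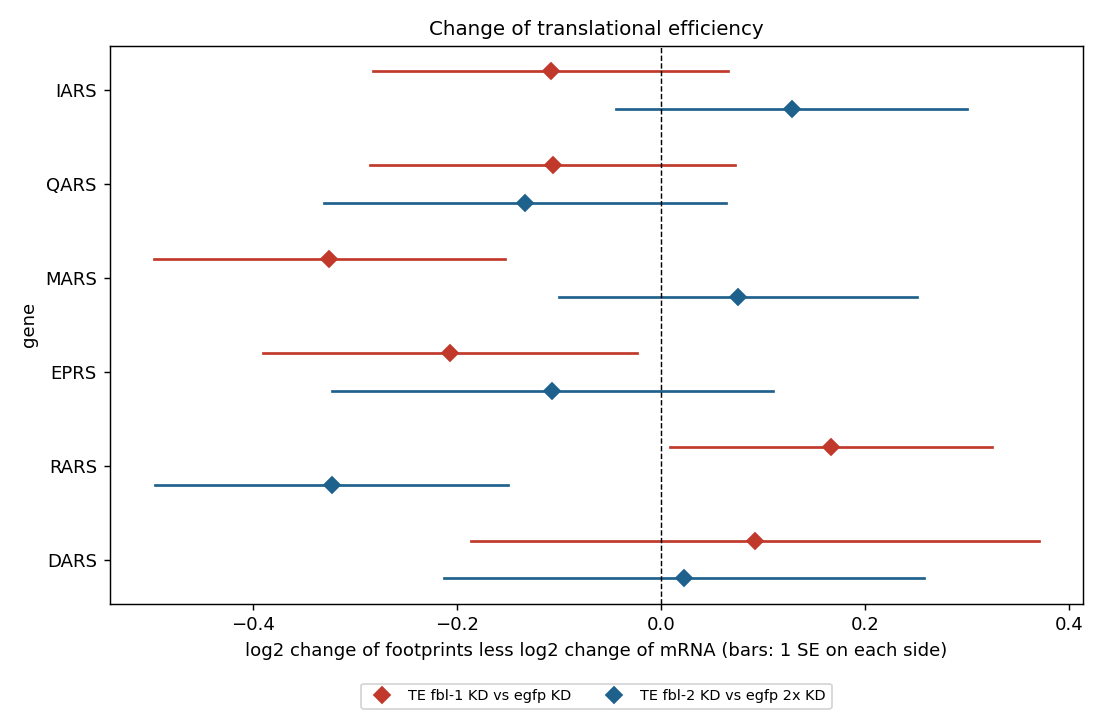
log2 change of translational efficiency (horizontal axis, footprint change less mRNA change) for each synthetase (vertical axis) in both knockdowns; bars are 1 SE on each side. Points lie between -0.33 and 0.17, and RARS has the highest point in *fbl-1* KD and the lowest in *fbl-2* KD.

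The synthetases that work outside the complex were set beside the 6. In mRNA of *fbl-1* KD, where 5.04% of all genes passed an adjusted p of 0.05 in limma, 7 of 9 genes passed upward and 0 downward, with a median log2 change of 0.64, and CARS (cysteine) had 1.40, AARS (alanine) 1.18, TARS (threonine, SMED30015942) 1.08 and NARS (asparagine) 0.85. In footprints, where 0.872% of all genes passed, 3 of 9 did, AARS at 1.23, CARS at 0.98 and TARS (SMED30015942) at 0.90. The other TARS ID (SMED30035804) passed in neither, with a log2 change of 0.09 in mRNA and -0.06 in footprints. Of these 9 genes, 0 passed in footprints without library egfp-1, fbl-1_2 or fbl-1_3, and 1 passed without egfp-2. In *fbl-2* KD mRNA 0 of 9 passed, beside 0.363% of all genes, and 1 had an unadjusted p under 0.05, beside 9.93%. In *fbl-2* KD footprints 0 of 9 passed, beside 3.12% of all genes, and 1 had an unadjusted p under 0.05, beside 13.6%. The *fbl-2* KD counts are thus near the background. These names come from the same entries as those of the 6, so the counts in *fbl-1* KD are no independent evidence of a direction.

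Other genes tied to amino acid supply and tRNA use were in part higher in *fbl-1* KD. In mRNA of *fbl-1* KD 5.04% of all genes passed, in either direction. Of 6 genes known in mammals from the amino acid response, 3 passed upward in mRNA and 0 downward: CHAC1, which breaks down glutathione, at a log2 change of 1.43, XPOT, the tRNA exporter, at 0.58, and ASNS (SMED30014191), asparagine synthetase, at 0.59. Of 6 IDs on a list of initiator tRNA delivery, 4 passed upward. EIF2S1 (SMED30028363), the alpha subunit of eIF2, was at 1.06 and EIF2S3, its gamma subunit, at 0.82. The other calls were the 2 IDs of EIF5, at 0.63 (SMED30023560) and 0.46 (SMED30031148). SHMT2, a serine hydroxymethyltransferase of the amino acid response list, had a log2 change of -0.61 in mRNA and did not pass, and is named here after its value was seen. In footprints, where 0.872% of all genes passed, 1 of the 6 amino acid response genes passed (CHAC1, 1.39) and 1 of the 6 initiator genes (EIF2S1, SMED30028363), and both calls were lost when egfp-1 or egfp-2, or when fbl-1_2 or fbl-1_3, was left out. In mRNA 1 amino acid response gene and 2 initiator genes passed without *fbl-1* KD replicate 3. With a single library left out, ASNS (SMED30014191) passed in mRNA only without *fbl-1* KD replicate 1. XPOT did not pass in mRNA without *fbl-1* KD replicate 1 or replicate 3. The other ASNS ID (SMED30007463) did not pass in *fbl-1* KD mRNA (limma, adjusted p = 0.0571). Nor did the other EIF2S1 ID (SMED30001987), at a log2 change of 0.36 (limma, adjusted p = 0.127). Its log2 change in *fbl-1* KD footprints was 0.05. Of 11 tested genes of tRNA processing and modification 0 passed in mRNA, with a median log2 change of 0.186, and 0 in footprints. These 3 lists were chosen with earlier results of these data known, so their counts in *fbl-1* KD are no independent evidence of a direction. In *fbl-2* KD mRNA 0.363% of all genes passed. There EIF5 (SMED30031148), which acts on eIF2 at the start codon, passed at 0.99 (limma, adjusted p = 0.00312). It was the 1 gene of these 3 lists that passed. Without *egfp* 2x KD replicate 1 its adjusted p in mRNA was 0.0633. In *fbl-2* KD footprints, where 3.12% of all genes passed, EIF5 was again the 1 gene of these 3 lists that passed, at 0.91. TARS, ASNS, EIF2S1 and EIF5 are each the name of 2 IDs, and how unique alignment splits reads between such IDs makes their single values uncertain.

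**Figure D5:**
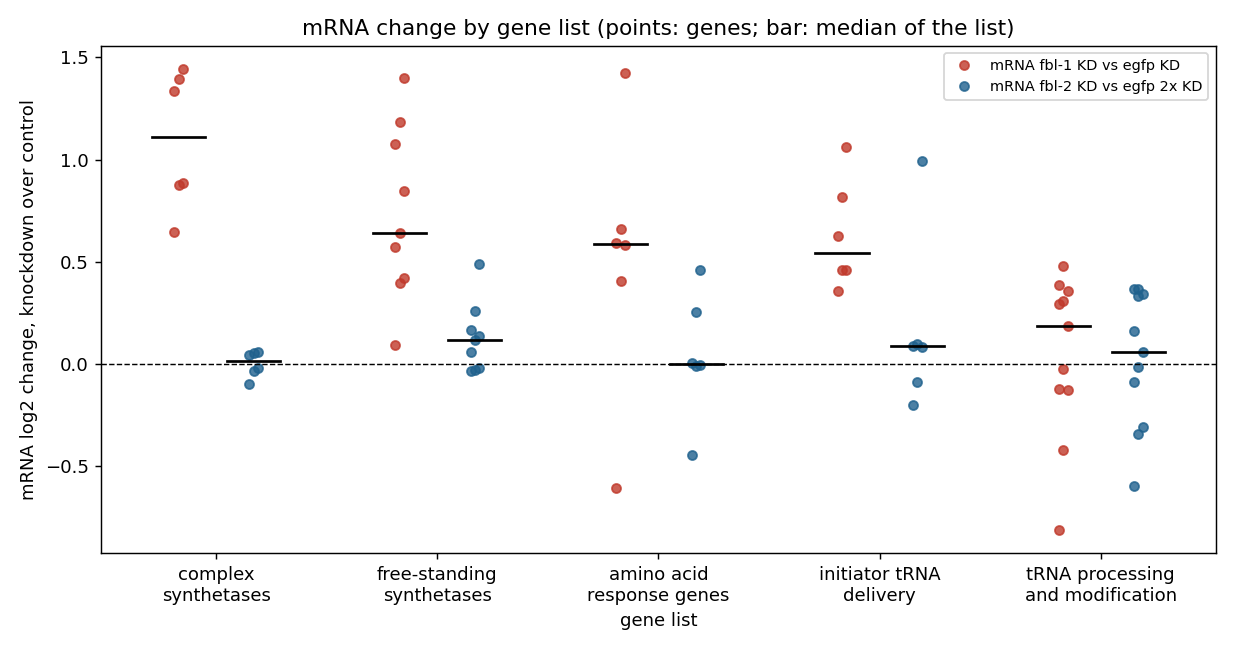
mRNA log2 change of knockdown over control (vertical axis) by gene list (horizontal axis) in both knockdowns; points are genes and bars are medians. The median of the complex synthetases is 1.11 in *fbl-1* KD and 0.0123 in *fbl-2* KD, and the 1 high point of *fbl-2* KD at 0.99 is EIF5.

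Over the 12 mRNA libraries, each gene was given a profile of log2 values less the mean of its own controls, and the profiles were set against the mean profile of the 6. Pearson's r of a gene with the mean of the other 5 was 0.994 for QARS, 0.993 for IARS, 0.991 for MARS, 0.989 for RARS, 0.949 for EPRS and 0.785 for DARS. Among the other 12822 genes the named ones with the highest r were TARS (SMED30015942, 0.993), AARS (0.991), NARS (0.988), CHAC1 (0.970), SLC17A5 (0.968) and MAT2A (0.967), and the unnamed ones were SMED30003300 (0.961) and SMED30032051 (0.937). SLC17A5 is a lysosomal transporter of sialic acid and MAT2A makes S-adenosylmethionine. The points share their libraries and their 2 steps of 3 knockdown against 3 control libraries, so that r mostly follows the difference between *fbl-1* KD and the rest.

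Markers of cell types moved in the same libraries. The summed mRNA of 3 neoblast markers (piwi-1, VASA-1 and MCM2) was 11938 to 12837 in *fbl-1* KD and 17823 to 19215 in *egfp* KD, with piwi-1 and MCM2 passing downward (1 or 2 passed with other single libraries left out, but neither without *fbl-1* KD replicate 1 or replicate 3), and their summed footprints were 10214 to 12517 in *fbl-1* KD and 16761 to 20853 in *egfp* KD. The summed mRNA of 5 markers of the epidermal lineage was 3428 to 3706 in *fbl-1* KD and 3270 to 4343 in *egfp* KD, with 1 passing upward (egr-5) and 1 downward (prog-1). With any 1 of the 6 libraries left out egr-5 did not pass, and prog-1 did so only without *egfp* KD replicate 2. In *fbl-2* KD the summed neoblast markers were 14797 to 16936 in mRNA, against 17534 to 18275 in *egfp* 2x KD, and 12384 to 12654 in footprints, against 13709 to 14917 in *egfp* 2x KD. The epidermal sums were 3540 to 4138 in *fbl-2* KD mRNA, against 3352 to 3619 in *egfp* 2x KD, and 3782 to 3974 in *fbl-2* KD footprints, against 4212 to 4369 in *egfp* 2x KD. In those footprints 3.12% of all genes passed. There egr-5 passed upward at a log2 change of 0.83 and zpuf-4 downward at -0.94, the second not without fbl-2_2, egfp_2x_1 or egfp_2x_2. The part of cell makeup in the values of the 6 synthetases was not tested.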

How the data were processed

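Per the study's methods, reads were trimmed with Cutadapt and Sickle, rRNA reads were removed, the rest were aligned with Tophat2 to a planarian reference, and unique reads were assigned to genes with featureCounts. The 4 tables deposited by the authors are named as counts but hold signal values: read numbers multiplied within each library by a single factor, then rounded. For 9 of the 24 libraries, some whole number from 1 to 25 is held by no gene. How the factors were set is not given in the sources used here. The values are thus not counts, and depth in reads is unknown, so no counting intervals are given.

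Tests used limma 3.58.1 in R 4.3.3 on log2(value + 1) with a mean trend and Benjamini-Hochberg adjustment over all genes with a value of at least 10 in at least 3 libraries (for TE, of each assay), with a threshold of 0.05. A log2 change on this scale understates the change of low genes. TE was the interaction of knockdown and assay. Footprint columns were tied to groups only, so no footprint library was paired with an mRNA library. All columns were used. The 6 genes and all lists were chosen with earlier results of these data known. The text names the 6 genes, at most 4 genes of a list by smallest p, 6 named and 2 unnamed genes by likeness, the targeted genes and the markers. Some other IDs of names already given are added. Alternatives were median-of-ratios size factors, a pseudocount of 5, no filter, no mean trend, a replicate block and each library left out.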

Additional observations from a re-analysis of the deposited data

Results flagged for a closer look

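For 3 results every library of one knockdown lay above its control mean and every library of the other below its own. The *fbl-1* KD change less the *fbl-2* KD change was 1.37 on the log2 scale for MARS mRNA, 1.36 for QARS footprints and 1.39 for RARS footprints. The differences between the knockdowns were not tested. For MARS mRNA the *fbl-2* KD libraries held 0.966 to 0.982 times the control mean, and for RARS footprints 0.762 to 0.821 times. The *fbl-2* KD changes themselves did not pass in limma, with adjusted p = 0.95 for MARS mRNA, 0.867 for QARS footprints and 0.291 for RARS footprints. Without egfp_2x_1 the log2 change of QARS footprints in *fbl-2* KD was 0.04, on the other side of 0. The same pattern was found for 4% of 12828 genes in mRNA and for 6.57% of 12259 genes in footprints. These shares are no background for the synthetases, which were chosen on the comparison of *fbl-1* KD with *egfp* KD. There every *fbl-1* KD library lay above its control mean for each synthetase, in mRNA and in footprints. Genes at large had to meet both parts of the pattern, and no share is given for the *fbl-2* KD part alone. Nothing is therefore read from how often the synthetases show the pattern.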

How the results depend on the processing

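The log2 changes of the 6 synthetases kept their size within the spread between libraries (*fbl-1* KD) or their side of the threshold (*fbl-2* KD) in all 444 refitted values, and members called in *fbl-2* KD stayed at 0. For *fbl-1* KD mRNA and footprints that spread was the pooled SD of the groups, which leaving out 1 library cannot exceed. The filter, the mean trend and the replicate block leave the estimate itself unchanged. Nothing is therefore read from the *fbl-1* KD part of this result. Counts of genes called moved. Without a mean trend limma called 49 genes in *fbl-1* KD mRNA (654 with it), 0 in *fbl-1* KD footprints (109 with it), 2 in *fbl-2* KD mRNA (47 with it) and 2 in *fbl-2* KD footprints (394 with it). With single libraries left out, the counts were 182 to 838 in *fbl-1* KD mRNA, 0 to 172 in *fbl-1* KD footprints, 13 to 91 in *fbl-2* KD mRNA, 187 to 559 in *fbl-2* KD footprints, 0 in TE of *fbl-1* KD and 0 to 10 in TE of *fbl-2* KD. Without a mean trend 3 of the 9 free-standing synthetases, 1 amino acid response gene and 1 initiator gene passed in *fbl-1* KD mRNA, and EIF5 in *fbl-2* KD mRNA had an adjusted p of 0.0584. In *fbl-2* KD footprints without a mean trend, the adjusted p in limma was 0.274 for EIF5 (SMED30031148), 0.314 for egr-5 and 0.487 for zpuf-4. Without the filter it was 0.063 for zpuf-4. The alternatives for gene lists were added after seeing the data. The causes were not tested.

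With a replicate block 413 genes were called in *fbl-1* KD mRNA and 13 in *fbl-2* KD mRNA, where EIF5 had an adjusted p of 0.0779. Deviations of same-numbered mRNA libraries correlated at -0.137 to 0.0473 in the first and -0.39 to -0.15 in the second comparison. These values do not settle whether same-numbered samples share more than a number. No paired analysis of footprints and mRNA was made. The names of the footprint columns are also titles of mRNA samples, so the numbers in them were not taken to mark footprint replicates. Per the study's methods the lysate of each sample was divided between the assays. The TE fits treated all libraries as independent and left this sharing out. The unknown read depth limits what small differences can show.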
